A study of Mus musculus with 140 samples.

Results

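The transcripts described here are those of the mouse mitochondrial genome, taken as every row of the deposited count table whose gene symbol begins with mt-. These were 32 of 34255 genes. Of the 37 genes on chrM in GENCODE M21 (build GRCm38), the rows held all 13 protein-coding genes, both rRNA genes and 17 of 22 tRNA genes. The tRNA genes mt-Ts1, mt-Td, mt-Tk, mt-Tg and mt-Th were not analysed here.

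RNA came from kidneys of male wild-type C57BL6/OlaHsd mice. The 7 groups of 4 mice were healthy mice at 0 h, sham-operated mice at 4, 24 or 72 h, and mice at the same times after CLP, that is cecal ligation and puncture, by which surgery starts abdominal sepsis. All groups share strain, sex and genotype, and the labels give no age or supportive treatment. From each of the 28 mice, glomeruli, arterioles, post-capillary venules and peritubular capillaries were laser microdissected and a piece of whole kidney was taken without microdissection, which gave 140 Lexogen QuantSeq libraries. QuantSeq starts at stretches of A with an oligo-dT primer and so reads the end of a polyadenylated transcript. Microdissected pieces are bulk samples, in which fewer cells of a type and less RNA per cell cannot be told apart.

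The mitochondrial genome is a small circle, transcribed from both strands into long precursors that are cut at the tRNAs between the other genes. Its proteins are all subunits of the respiratory chain and ATP synthase: mt-Nd1 to mt-Nd6 and mt-Nd4l of complex I, mt-Cytb of complex III, mt-Co1 to mt-Co3 of complex IV, and mt-Atp6 and mt-Atp8 of complex V. The rRNAs mt-Rnr1 and mt-Rnr2 belong to the small and the large subunit of the mitochondrial ribosome. Most of the cut mRNAs receive a poly(A) tail inside the mitochondrion, and the rRNAs a short one. In kidney the proximal tubule and the thick ascending limb are known for their density of mitochondria, and glomerular cells for having few.

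Pieces of the mitochondrial genome have been copied into nuclear chromosomes during evolution, and a read that fits both places cannot be assigned to one of them by its sequence. The following stretches, read from the GENCODE M21 transcripts (build GRCm38) 5′ to 3′ on the strand of each gene, show how near such copies come. The last 60 bases that mt-Co2 (chrM:7634-7693, plus strand) shares with the nuclear pseudogene Gm28661 (chr1:24614885-24614944, minus strand) were identical. In mt-Co1 (chrM:6390-6449) and Gm29216 (chr1:24616129-24616188, minus strand) 1 base differed, shown as a capital. In mt-Cytb (chrM:15228-15287) and Gm11410 (chr4:80005072-80005131, plus strand) 5 bases differed, shown as capitals. The end of mt-Nd4 (chrM:11485-11544), the most counted gene, has no capitals. It stands for a 3′ end for which the search of nuclear transcripts kept no close copy. For mt-Rnr2 (chrM:1450-1509, bases 357 to 416 of 1582), on which the largest difference between groups rested, the capitals are the A of windows of 10 bases that hold at least 8 A. This stretch was chosen as the 60 bases of mt-Rnr2 with most such windows.
mt-Co2: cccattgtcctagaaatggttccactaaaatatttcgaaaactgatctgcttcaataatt
Gm28661: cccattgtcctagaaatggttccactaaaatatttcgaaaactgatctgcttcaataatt
mt-Co1: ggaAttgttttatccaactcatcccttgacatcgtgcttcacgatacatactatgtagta
Gm29216: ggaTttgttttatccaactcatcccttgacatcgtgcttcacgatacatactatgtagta
mt-Cytb: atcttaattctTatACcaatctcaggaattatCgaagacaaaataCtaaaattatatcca
Gm11410: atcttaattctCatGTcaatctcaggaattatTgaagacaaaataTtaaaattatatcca
mt-Nd4: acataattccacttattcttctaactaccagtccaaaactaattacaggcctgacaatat
mt-Rnr2: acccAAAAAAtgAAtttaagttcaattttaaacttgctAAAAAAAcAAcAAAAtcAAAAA

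The 32 genes held 131.8 M of 1285 M counts, 10.3% in all. Their summed share ran from 3.99% to 26.5% of a library's gene counts with a median of 9.87%, in libraries of 4.24 to 18.3 M counts (M for mega, median 8.73 M). Intervals for counting error alone are therefore narrow, though without molecular identifiers 2 reads may stem from 1 molecule. Microdissected libraries of mice examined at 24 and 72 h detected fewer genes than the earlier ones (healthy and 4 h). The later median was 6982 genes in capillaries, 8081 in arterioles, 10788.5 in venules and 11717 in glomeruli, and the earlier one 12632.5, 12611.5, 12876.5 and 13800.5 in the same order. The columns of the table fall into the same 2 blocks, so time after surgery and block cannot be told apart. The 4 capillary libraries of CLP mice at 72 h stand apart, with 2949, 5595, 3281 and 4020 genes detected against 7137 to 9816 in sham mice at 72 h. Libraries labelled peritubular capillaries held proximal tubule markers (18 genes led by Kap and Slc34a1) at 6.88% to 10.3% of counts in sham mice at 72 h, beside 0.0767% to 0.126% for 15 endothelial markers. The labels call the replicates biological. Between groups of mice, p-values measure the spread between libraries of different mice, in which mouse and library preparation cannot be told apart. Where the mouse is a block, they measure the spread left within mice.

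Counts were concentrated in few genes. The 8 genes with a count in all 140 libraries (mt-Nd4, mt-Rnr2, mt-Nd1, mt-Nd2, mt-Cytb, mt-Rnr1, mt-Co1 and mt-Nd5) held 99.6% of mitochondrial counts, and the first 5 of them 92.6%. mt-Nd4 alone held 25.99% of mitochondrial counts and mt-Rnr2 24.2%, followed by mt-Nd1 with 14.5%, mt-Nd2 with 13.98% and mt-Cytb with 13.8%. mt-Rnr1 held 3.64%, mt-Co1 1.79% and mt-Nd5 1.61%. Per length the order changed little: mean levels over all libraries were 19234 CPM per kb for mt-Nd4, 15937 for mt-Rnr2, 15720 for mt-Nd1, 13163 for mt-Nd2 and 12403 for mt-Cytb, where CPM is a gene's counts scaled to a library of 1 M gene counts. mt-Rnr1 had 3976 CPM per kb, and mt-Co1, the catalytic core of cytochrome oxidase, had 1202. Because QuantSeq reads transcript ends, a count need not grow with length, and levels per kb do not measure abundance here.

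The other protein-coding genes were near or at 0. mt-Nd3 had 38315 counts over 105 libraries and mt-Nd6, the one protein-coding gene on the light strand, had 11718 counts over 92 libraries. mt-Atp6 had 505 counts in 21 libraries and mt-Co2 178 counts in 16, of which 130 came from a single venule library of a sham mouse at 4 h (replicate 1). mt-Co3 had 25 counts in 7 libraries, mt-Nd4l 15 in 5 and mt-Atp8 3 in 1. Levels of complex IV and complex V subunits other than mt-Co1 therefore cannot be compared between groups in these files.

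The position of nuclear copies was set beside these counts. On chromosome 1 a row of minus-strand pseudogenes between Gm28439 (chr1:24611535-24612410) and Gm29216 (chr1:24615706-24616197) was nearly a copy of the stretch from mt-Co1 to mt-Nd4. Gm28661 matched 681 of 684 bases of mt-Co2 without a mismatch, Gm10925 matched 678 of 681 bases of mt-Atp6, Gm28437 matched 783 of 784 bases of mt-Co3, and Gm10222 matched 294 of 297 bases of mt-Nd4l. Gm28438 matched 345 of 348 bases of mt-Nd3 with the substitution T3C, given as the mitochondrial base, its position from 1 at the gene's 5′ end, and the base of the copy. These 5 mitochondrial genes had 15 to 38315 counts, and their copies were rarely counted too: 1021 counts for Gm28661, 448 for Gm10925, 433 for Gm28438, 363 for Gm28437 and 1 for Gm10222 over all libraries. Gm28439 matched the first 876 bases of mt-Nd4 without a mismatch, but the last 502 bases of mt-Nd4, its 3′ part, lie outside the match, and mt-Nd4 had 34258075 counts.

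**Figure D1:**
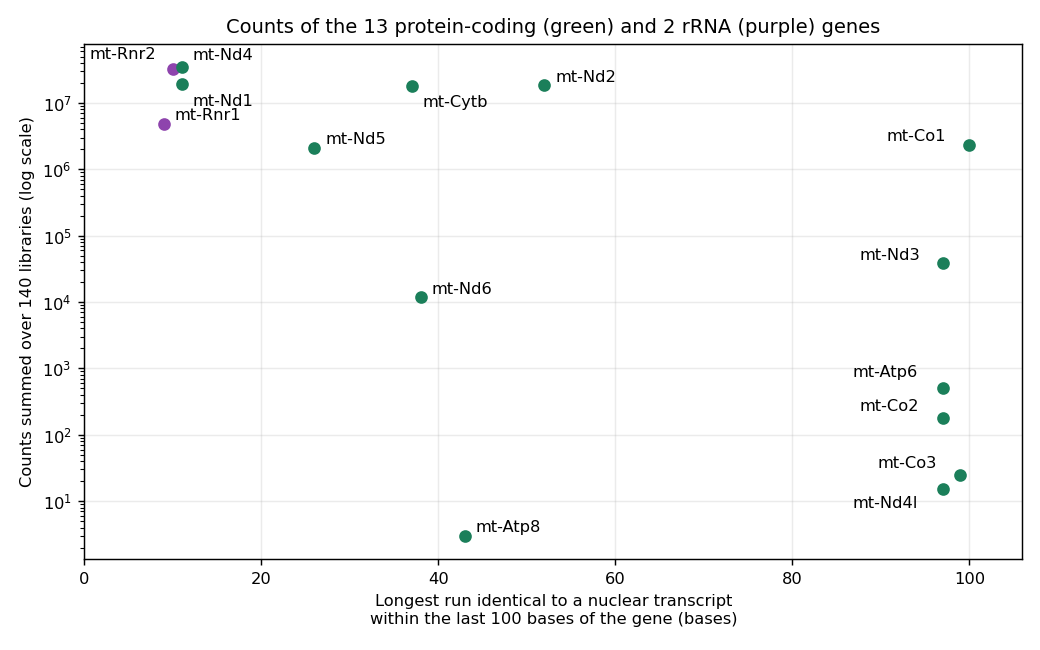
Counts summed over 140 libraries (vertical axis, log scale) of the 13 protein-coding genes (green) and both rRNA genes (purple). The horizontal axis (bases) is the longest run, within the last 100 bases of the gene, that is identical to a transcript kept as a nuclear copy. Runs in other nuclear transcripts were not sought. Genes with a run of 97 to 100 bases had 15 to 38315 counts except mt-Co1, and the 6 most counted genes, from mt-Rnr1 with 4797510 counts upward, had a run of 52 bases or fewer.

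Not all genes follow that order. The last 479 bases of mt-Co1 were identical to Gm29216, after the substitution A1066T, and yet mt-Co1 had 2362085 counts and Gm29216 185. A copy of all 1545 bases of mt-Co1 on chromosome 2, Gm13340, was 97.6% identical and had 20183 counts. mt-Atp8, of which 43 of the last 100 bases were shared with Gm10925, had 3 counts, fewer than any other protein-coding gene, and mt-Nd6, with a run of 38 bases, had 11718, fewer than mt-Nd3 with a run of 97. Other copies were less alike: Gm13341 was 95.9% identical to mt-Co2 (6785 counts), Gm11410 92.9% to mt-Cytb (1181), Gm13339 96.7% to the last 510 bases of mt-Nd2 (255), Gm11512 90.7% to part of mt-Co1 (1761), Gm4076 95.2% to part of mt-Nd5 (671) and Gm11407 92.3% to part of mt-Nd5 (139). Shorter matches were 116 bases of mt-Atp6 in Gm43743 (7272 counts), 34 bases of mt-Atp8 in Gm28926 (410), 36 bases of mt-Tt in Gm43841 (692) and 71 bases of mt-Tn in the protein-coding gene Cep295 (29340). How reads with several equal positions were counted is not given in the sources used here, and its part in these counts was not tested.

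Stretches of A inside a transcript were counted as windows of 10 bases with at least 8 A, on the strand of the transcript, with overlapping windows counted separately. Such windows made up 0.351% of all windows in 141730 other transcripts of the annotation. In mt-Nd2 they made up 1.36% (14 windows) and in mt-Rnr2 1.14% (18 windows, from base 361 to base 1551), against 0.423% in mt-Rnr1, 0.292% in mt-Nd4, 0.260% in mt-Co1 and 0.220% in mt-Nd5. mt-Nd1 and mt-Cytb held none. Of the sparsely counted genes, mt-Atp8 had 1.03% (2 windows), mt-Nd3 0.590%, mt-Atp6 0.298% and mt-Co2 0.148%, and mt-Co3, mt-Nd4l and mt-Nd6 held none. Where reads began within a gene was not analysed here, since the files hold 1 count per gene.

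In healthy mice the mitochondrial share differed between compartments. Glomerular libraries of the 4 healthy mice had 4.85%, 6.36%, 5.85% and 5.34% (mean 5.60% ± 0.650, SD, n = 4), arterioles 5.50%, 6.90%, 7.52% and 8.33% (7.06% ± 1.19), and peritubular capillaries 11.4%, 10.6%, 9.27% and 8.39% (9.93% ± 1.36). Venules had 14.98%, 13.3%, 13.5% and 12.9% (13.7% ± 0.918), and whole kidney 13.5%, 14.3%, 13.6% and 13.2% (13.6% ± 0.475). Glomeruli and arterioles overlapped, as did venules and whole kidney, while capillaries lay between these pairs. The summed share is given without a test. Proximal tubule markers differed between the same libraries, at 7.28% to 9.55% of counts in capillaries, 4.87% to 5.33% in whole kidney, 3.02% to 3.50% in venules, 0.839% to 1.22% in glomeruli and 0.654% to 1.61% in arterioles, each with 18 of 18 markers counted. Their part in the mitochondrial values was not tested.

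The order of compartments was compared within each of the 28 mice. Venules held the highest mitochondrial share in 19 mice, whole kidney in 7 and capillaries in 2, and glomeruli the lowest in 20, arterioles in 6 and capillaries in 2. The rRNA share had another order, with capillaries highest in 26 mice and venules in 2. The protein-coding share was highest in venules in 19 mice and in whole kidney in 9.

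**Figure D2:**
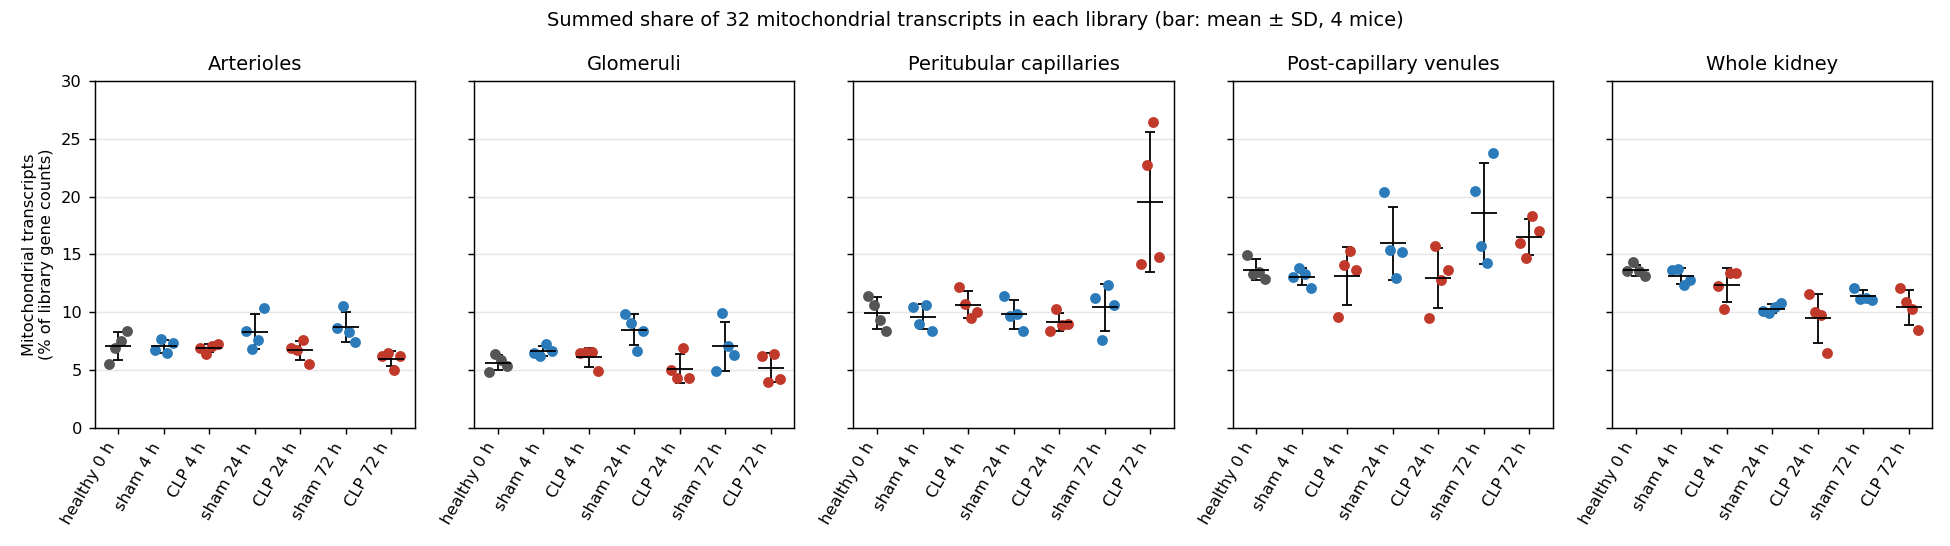
Summed share of the 32 mitochondrial transcripts (vertical axis, % of the library's gene counts) in each of 140 libraries, by compartment and group (horizontal axis). Points are mice, and bars the mean ± SD of 4 mice. CLP capillary libraries at 72 h lie between 14.1% and 26.5%, above the 7.56% to 12.3% of sham mice at 72 h.

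Tests of single genes between compartments used the edgeR quasi-likelihood test on the 16 microdissected libraries of healthy mice with the mouse as a block, comparing 1 compartment with the average of the remaining 3, with p adjusted (Benjamini-Hochberg) over all genes tested and a threshold of 0.05. Of the 32 mitochondrial genes 20 had enough counts to be tested. In glomeruli 8 of these 20 were lower and none higher, where 4.19% of all genes were called, and the median log2 change was −0.82 for the 20 genes and 0.38 for all genes. They were the 8 abundant genes, from mt-Nd2 at −1.04 ± 0.20 (log2 ± SE, adjusted p = 0.00038) to mt-Rnr2 at −1.71 ± 0.15 (adjusted p = 3e-13), with mt-Cytb at −1.42 ± 0.18 and mt-Nd4 at −1.12 ± 0.16 (edgeR, adjusted p = 1.6e-08 and 5.13e-07). With library totals alone the median of all genes in glomeruli was 0.90 and 5 mitochondrial genes were called.

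In venules 7 of 20 were higher and none lower, where 0.591% of all genes were called, with a median of 1.17 for the 20 genes and 0.14 for all. These were mt-Nd2 (1.22 ± 0.18), mt-Nd1 (1.13 ± 0.14), mt-Nd5 (1.04 ± 0.22), mt-Cytb (0.97 ± 0.15), mt-Nd4 (0.91 ± 0.14), mt-Rnr1 (0.91 ± 0.21) and mt-Co1 (0.87 ± 0.22), with edgeR adjusted p from 1.38e-07 for mt-Nd1 to 0.0426 for mt-Co1. DESeq2 called 2 of them, and leaving out a healthy mouse left 4 (without replicate 1 or 3) or 6 (without replicate 2 or 4). mt-Rnr2, at 0.41 ± 0.14, did not pass (edgeR, adjusted p = 0.215).

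Peritubular capillaries were set apart by 1 abundant gene. mt-Rnr2 had 41067 ± 3421 CPM there (SD, n = 4) against 26434 ± 1424 in venules, 14844 ± 2548 in arterioles and 11408 ± 1878 in glomeruli, with no overlap between capillaries (36118 to 43468 CPM) and any other compartment. It was higher by 1.56 ± 0.13 (edgeR, adjusted p = 1.09e-14). No protein-coding gene passed, from mt-Nd6 at −2.09 ± 2.66 and mt-Nd3 at −1.11 ± 1.35, which were sparsely counted, over mt-Nd4 at −0.03 ± 0.15, mt-Nd1 at −0.02 ± 0.15, mt-Cytb at −0.02 ± 0.16 and mt-Nd2 at 0.13 ± 0.19, to mt-Co1 at 0.44 ± 0.23 and mt-Nd5 at 0.49 ± 0.23 (edgeR, adjusted p from 0.23 to 0.982). The tRNA mt-Tt was lower by 6.56 ± 1.77 (edgeR, adjusted p = 0.0123), at 0.189 to 0.380 CPM in capillaries and 3.47 to 191.8 CPM in the other 12 libraries. These 2 genes of 20 were called where 6.14% of all genes were, and DESeq2 called 6. A single gene was called without healthy replicate 1, 3 or 4. In arterioles none of 20 was called, with 2 at an unadjusted p under 0.05 and 1 called by DESeq2, where 7.32% of all genes were called. mt-Cytb in arterioles was at 0.46 ± 0.16 (edgeR, adjusted p = 0.0583).

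**Figure D3:**
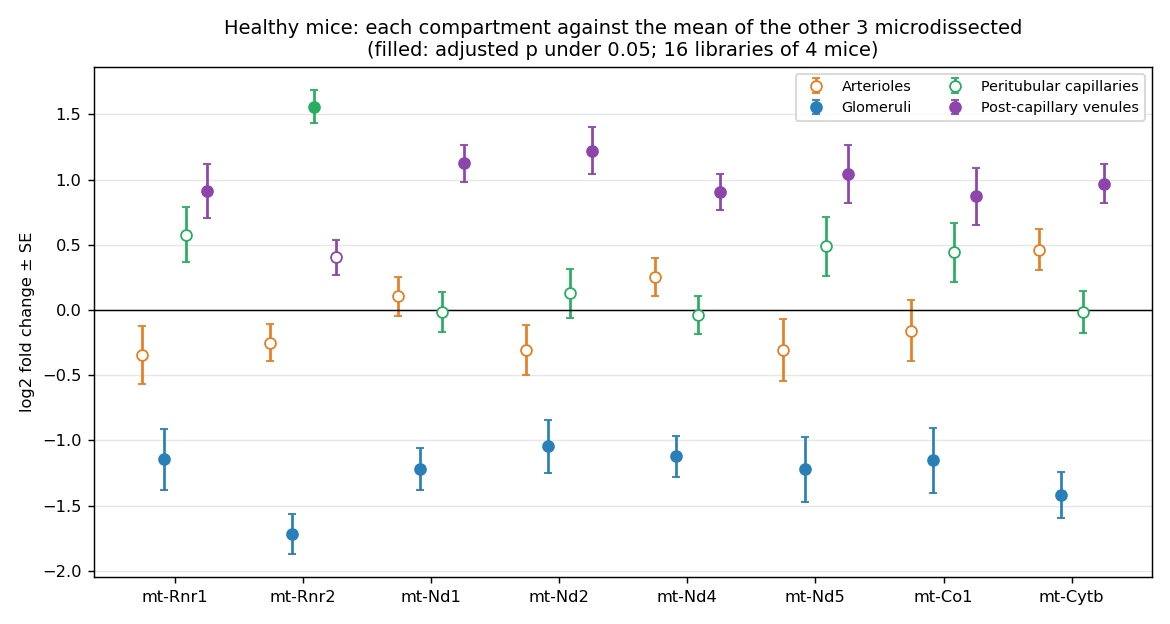
Log2 fold change (vertical axis) of the 8 abundant mitochondrial genes (horizontal axis) in each microdissected compartment against the mean of the other 3, in healthy mice (16 libraries of 4 mice). Points are edgeR estimates, bars the SE, and filled points passed at an adjusted p under 0.05. All 8 genes are low in glomeruli, 7 are high in venules, and mt-Rnr2 is high in capillaries.

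Against whole kidney 22 mitochondrial genes were tested in the same way on 20 libraries, and compartment and microdissection cannot be told apart there. Glomeruli were lower in 7 genes (3.65% of all genes called), from mt-Rnr2 at −0.67 ± 0.15 to mt-Cytb at −1.77 ± 0.18 (edgeR, adjusted p = 0.00341 and 1.77e-10). mt-Rnr2 was the gene called higher in all 3 other compartments, at 1.78 ± 0.15 in capillaries, 0.91 ± 0.15 in venules and 0.43 ± 0.15 in arterioles (edgeR, adjusted p = 3.42e-12, 0.00019 and 0.049). With library totals alone, the arteriole value turned to −0.18. Whole kidney had 16291 to 17309 CPM of mt-Rnr2, and capillaries and venules did not overlap with it. Other calls were mt-Nd4 at −0.78 ± 0.16 in capillaries, and in arterioles mt-Nd1 at −0.51 ± 0.16, mt-Nd2 at −0.91 ± 0.21, mt-Nd4 at −0.56 ± 0.16 and mt-Tt at 4.37 ± 1.54. The shares of all genes called were 0.174% in capillaries, 0.261% in venules and 13.2% in arterioles, where 5 of 22 mitochondrial genes were called and the median of all genes was −0.69. Without a healthy mouse the arteriole calls were 2, 3, 1 and 2 (leaving out replicates 1 to 4 in turn), and capillaries had 1 call without replicate 4.

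The question of the series was how CLP changes the kidney's microvascular compartments, and the 6 calls of mitochondrial genes among 15 CLP comparisons were all in peritubular capillaries at 72 h. The mitochondrial share there was 14.1%, 22.7%, 26.5% and 14.7% in the 4 CLP mice (mean 19.5% ± 6.07, SD, n = 4) and 11.2%, 7.56%, 12.3% and 10.6% in the 4 sham mice (10.4% ± 2.04). Its rRNA and mRNA parts went opposite ways. The rRNA share was 16.7% ± 5.89 in CLP and 4.01% ± 1.12 in sham mice, and the protein-coding share 2.80% ± 0.604 against 6.41% ± 1.26. CLP and sham mice did not overlap in either measure.

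mt-Rnr2 (ENSMUSG00000064339, chrM:1094-2675) held most of the difference. Its share was 11.3%, 18.3%, 22.8% and 11.1% of library counts in the 4 CLP mice and 3.74%, 2.68%, 4.86% and 3.18% in the 4 sham mice. All CLP libraries were above all sham libraries, and above every other capillary library of the series, of which the highest had 6.50% (CLP at 4 h). mt-Rnr2 rose by 2.00 ± 0.31 (log2 ± SE, edgeR, adjusted p = 0.00053). mt-Rnr2 made up 80.6% ± 4.31 of the mitochondrial counts of CLP mice against 34.5% ± 3.94 in sham mice.

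The other rRNA, mt-Rnr1, had 0.712%, 0.773%, 1.09% and 0.590% in CLP mice and 0.362%, 0.326%, 0.690% and 0.189% in sham mice, with 1 sham library inside the CLP range. It rose by 0.84 ± 0.31 (edgeR, adjusted p = 0.0461), a call that remained in 1 of 8 fits that leave out a mouse, the one without sham replicate 3. Its part of the mitochondrial counts was 4.14% ± 0.676 in CLP and 3.73% ± 1.62 in sham mice.

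3 complex I genes were lower in CLP than in sham mice, mt-Nd4, mt-Nd2 and mt-Nd1. mt-Nd4 (ENSMUSG00000064363, chrM:10167-11544) had 0.682%, 1.02%, 0.902% and 1.22% in CLP mice against 2.60%, 1.64%, 1.78% and 2.95% in sham mice, without overlap, a change of −1.36 ± 0.19 (edgeR, adjusted p = 4.93e-09). mt-Nd2 had 0.621%, 0.593%, 0.474% and 0.743% against 1.41%, 1.30%, 3.59% and 1.44%, without overlap (−1.87 ± 0.45, edgeR adjusted p = 0.0158). mt-Nd1 had 0.525%, 0.750%, 0.564% and 0.536% against 1.25%, 0.948%, 0.749% and 1.31%, with the highest CLP library just above the lowest sham library (−0.96 ± 0.22, edgeR adjusted p = 0.00222). The mt-Nd2 call was lost without CLP replicate 3. For mt-Nd2 the CLP mean of 0.608% lay near the 0.714% of healthy mice and the 0.542% of sham mice at 4 h. Sham mice had means of 1.66% at 24 h and 1.93% at 72 h. At 24 h CLP and sham mice did not overlap for mt-Nd2 either (0.200% to 0.882% against 1.17% to 2.39%).

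Of the other chain subunits mt-Co1 fell by 1.64 on the log2 scale (SE 0.45, edgeR adjusted p = 0.0131), with 0.0201%, 0.105%, 0.0329% and 0.0334% in CLP and 0.163%, 0.101%, 0.142% and 0.144% in sham mice, where the CLP library of replicate 2 reached the sham range. mt-Cytb at −0.88 ± 0.43 and mt-Nd5 at −0.82 ± 0.46 did not pass (edgeR, adjusted p = 0.138 and 0.191). Of the 21 mitochondrial genes tested 6 were called, 2 higher and 4 lower.

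**Figure D4:**
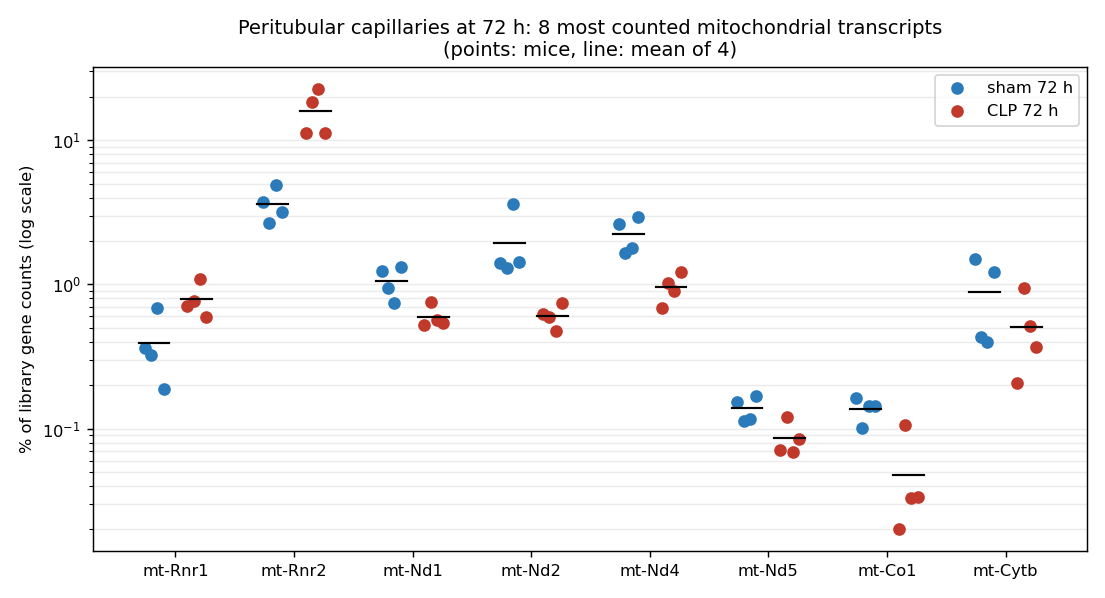
Share of library gene counts (vertical axis, %, log scale) of the 8 abundant mitochondrial genes (horizontal axis) in peritubular capillaries at 72 h. Points are the 4 sham (blue) and 4 CLP (red) mice and lines their means. mt-Rnr2 is at 11.1% to 22.8% in CLP and at 2.68% to 4.86% in sham mice, while mt-Nd4 is at 0.682% to 1.22% and at 1.64% to 2.95%.

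These calls stand in a comparison in which much of the table moved. Of all 11772 genes tested in capillaries at 72 h, 22.3% were called, 212 higher and 2413 lower, with a median log2 change of −1.28 (−1.17 with library totals alone and −0.87 with DESeq2). The median of the 21 mitochondrial genes was −0.20. Set against the median of all genes, mt-Nd4 was at −0.08, mt-Co1 at −0.36, mt-Nd2 at −0.59, mt-Nd1 at 0.32, mt-Cytb at 0.40 and mt-Nd5 at 0.46, which places these mRNAs on both sides of the median gene. mt-Rnr2 lay 3.28 above that median and mt-Rnr1 2.12 above it. Without the CLP libraries of under 4000 detected genes (replicates 1 and 3, an alternative chosen after the data were seen), mt-Rnr2 at 1.86 ± 0.33, mt-Nd4 at −1.14 ± 0.18 and mt-Nd1 at −0.85 ± 0.21 passed, and mt-Rnr1, mt-Nd2 and mt-Co1 did not (edgeR, adjusted p = 0.217, 0.142 and 0.108). In that fit 2.75% of all genes were called, and the median log2 change of all genes was −1.63. Set against that median, mt-Nd4 lay 0.49, mt-Nd1 0.78 and mt-Rnr2 3.49 above it.

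Other measures moved with the same libraries. Proximal tubule markers summed to 3.31% to 3.96% of counts in CLP mice against 6.88% to 10.3% in sham mice, with 17 of 18 markers counted and Slc5a2 at 0. Endothelial markers summed to 0.000599% to 0.0710% against 0.0767% to 0.126%, with Cdh5, Erg and Robo4 at 0 in all 4 CLP libraries. Smooth muscle and renin cell markers summed to 0.00154% to 0.0426% against 0.0453% to 0.0998%, with Des, Myh11 and Rgs5 at 0. Macrophage markers (0.00254% to 0.0323% against 0.0127% to 0.0169%) and loop and distal tubule markers (0.322% to 0.739% against 0.466% to 0.527%) overlapped. The part of these cell types and of the number of genes detected in the mitochondrial values was not tested.

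The nuclear genes that work with the mitochondrial ones were followed in the same comparison. Of 78 tested nuclear subunits of oxidative phosphorylation 0 were higher and 7 (8.97%) lower, with a median of −0.83, where 20.5% of all genes were lower and the median was −1.28. They were Ndufab1, Ndufa9, Ndufa12, Ndufs5 and Ndufs7 of complex I, and Atp5a1 and Atp5g3 of ATP synthase. Atp5a1 had 460.6 ± 345.9 CPM in CLP and 1259 ± 344.6 CPM in sham mice (−1.63 ± 0.53, edgeR adjusted p = 0.034), and Ndufa12 199.6 ± 269.6 against 786 ± 290.2 CPM (−2.14 ± 0.79, edgeR adjusted p = 0.0454). Of 75 tested proteins of the mitochondrial ribosome 0 were higher and 13 (17.3%) lower, with a median of −1.03. Both shares are below that of all genes. The ribosomal proteins include Mrpl14 with 1.23 ± 2.46 CPM in CLP against 259.2 ± 85.54 CPM in sham mice (edgeR, adjusted p = 0.00114). Mrps12, Mrpl28, Mrps35, Mrpl36 and Mrps2 had no count in the 4 CLP libraries.

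Genes that make or process mitochondrial RNA were sparsely counted in these libraries. Of 13 transcription and replication genes 1 was lower, Tfb2m, a factor that opens the mitochondrial promoters, counted in 2 sham libraries and in no CLP library. Of 18 processing and stability genes 2 were called higher and 3 lower, and each of these calls rests on 1 or 2 libraries against a group with no count. Mtpap, the mitochondrial poly(A) polymerase, was counted in 2 CLP libraries and Fastkd5 in 1, and neither in sham mice. Fastkd2 was counted in 1 sham library, and Fastkd3 and Pde12, which removes mitochondrial poly(A) tails, in 2, and none of them in CLP mice. The regulators Esrrg, counted in 3 sham libraries, and Nrf1, counted in 1, were called lower in the same way. No fold is given for these genes, and a difference that rests on so few libraries was not read as a change of the group.

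**Figure D5:**
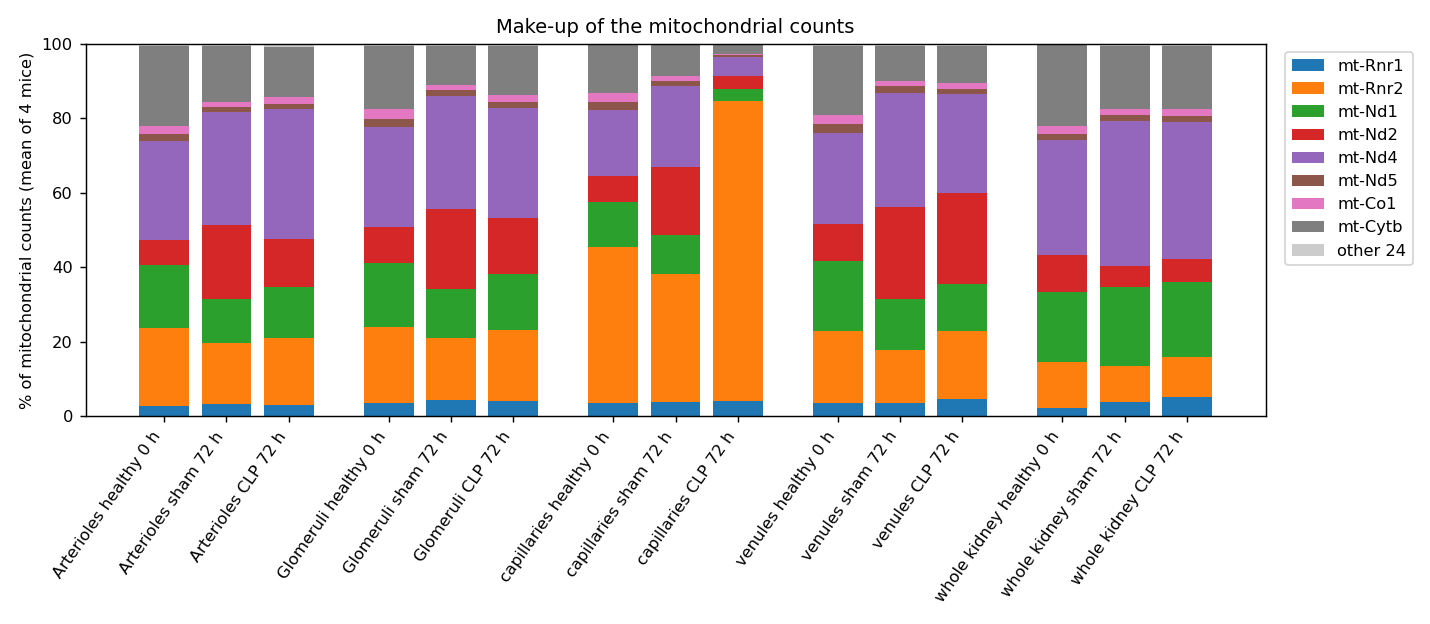
Make-up of the mitochondrial counts (vertical axis, % of mitochondrial counts, mean of 4 mice) in 5 compartments in healthy, sham 72 h and CLP 72 h mice (horizontal axis). mt-Rnr2 (orange) takes 80.6% in CLP capillaries at 72 h and 34.5% in sham capillaries at 72 h.

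Whether the CLP change itself differed between the 4 microdissected compartments was tested with interaction terms in 32 libraries of each time, with the mouse as a block. At 72 h 3 of 21 mitochondrial genes differed, mt-Rnr2 (edgeR, adjusted p = 7.67e-18), mt-Nd2 (1.47e-06) and mt-Nd4 (0.000496), where 1.48% of all genes did. The log2 changes of mt-Rnr2 at 72 h were 2.00 ± 0.31 in capillaries, 0.00 ± 0.35 in venules, −0.30 ± 0.25 in glomeruli and −0.45 ± 0.28 in arterioles. Those of mt-Nd4 were −1.36 ± 0.19, −0.50 ± 0.16, −0.52 ± 0.27 and −0.42 ± 0.17. The medians of all genes in the same comparisons were −1.28, 0.02, 0.0 and −0.06, in the same order. The part of that shift in the interaction was not tested. At 4 h 0 of 23 and at 24 h 0 of 21 mitochondrial genes differed in edgeR (0 and 1 at an unadjusted p under 0.05), where 0.021% and 0.161% of all genes did.

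In the other 14 CLP comparisons no mitochondrial gene passed. Over these, 315 pairs of gene and comparison were tested, 39 (0 to 6 in each comparison) were under 0.05 before adjustment, and DESeq2 called 8. Without the low-count filter edgeR called 9, all lower in CLP mice: 5 in glomeruli at 24 h (mt-Cytb, mt-Nd1, mt-Nd2, mt-Nd4 and mt-Rnr2), 3 in glomeruli at 72 h (mt-Nd2, mt-Nd3 and mt-Nd4) and mt-Cytb in arterioles at 72 h. The shares of all genes called by DESeq2 and without the filter are not given here. In edgeR with the filter the shares of all genes called in arterioles were 0.00821%, 0.0164% and 0.0% at 4, 24 and 72 h, and in glomeruli 0.11%, 0.137% and 0.0343%. In capillaries they were 0.0% at 4 h and 0.051% at 24 h, and in venules 0.0%, 0.0813% and 0.0443%. Few genes of any kind passed in microdissected tissue, where the biological coefficient of variation of the fit was 1.92 in arterioles, 1.40 in glomeruli, 1.94 in capillaries and 1.58 in venules, against 0.241 in whole kidney.

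At 4 h the shares of CLP and sham mice overlapped in all 5 compartments. In venules at 4 h they were 9.57%, 14.1%, 15.3% and 13.6% in CLP and 12.995%, 13.8%, 13.3% and 12.1% in sham mice. At 24 h glomeruli had 4.96%, 4.25%, 6.89% and 4.32% in CLP and 9.79%, 9.04%, 6.63% and 8.39% in sham mice, which overlap through 1 library each. Their protein-coding share did not overlap, at 3.82% ± 0.935 against 6.62% ± 0.854 (SD, n = 4). It was 4.23% ± 0.493 in glomeruli of healthy mice and 4.73% ± 0.170 in those of sham mice at 4 h, which lie in the other block. Between CLP and sham glomeruli at 24 h mt-Cytb was at −0.93 ± 0.34 and mt-Nd4 at −0.75 ± 0.27, and neither passed (edgeR, adjusted p = 0.33 for both).

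At 72 h arterioles had 6.17%, 6.46%, 5.02% and 6.23% in CLP and 8.60%, 10.6%, 8.30% and 7.42% in sham mice, without overlap (5.97% ± 0.644 against 8.72% ± 1.33, SD, n = 4). Arterioles of healthy mice had 7.06% ± 1.19 and those of sham mice at 4 h 7.02% ± 0.551, in the other block. Between CLP and sham arterioles at 72 h no gene passed, with mt-Cytb nearest at −0.81 ± 0.18 (edgeR, adjusted p = 0.0734) and 2 genes called by DESeq2. Venules at 72 h had 15.9%, 14.7%, 18.3% and 17.002% in CLP and 20.5%, 15.7%, 14.3% and 23.7% in sham mice, and glomeruli 6.21%, 3.99%, 6.38% and 4.19% against 4.86%, 9.90%, 7.08% and 6.27%. Both overlapped. Of 15 CLP comparisons, the mitochondrial share did not overlap in 2, capillaries and arterioles at 72 h.

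Whole kidney showed no mitochondrial call with CLP. Its share was 12.3%, 10.2%, 13.3% and 13.4% at 4 h, 11.6%, 10.004%, 9.71% and 6.49% at 24 h and 12.1%, 10.9%, 10.3% and 8.45% at 72 h after CLP. After sham it was 13.6%, 13.7%, 12.3% and 12.8% at 4 h, 10.1%, 9.88%, 10.4% and 10.8% at 24 h, and 12.1%, 11.1%, 11.2% and 11.03% at 72 h. CLP and sham mice overlapped at each time. At 72 h mt-Nd1 was at −0.29 ± 0.10, with 1.96% to 2.19% in CLP and 2.35% to 2.54% in sham mice, which do not overlap, and mt-Nd4 was at −0.29 ± 0.14 (edgeR, adjusted p = 0.12 and 0.34). These values come from a compartment in which 2.24%, 5.28% and 3.89% of all genes were called at 4, 24 and 72 h.

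Nuclear partners were followed in whole kidney with CLP as well. Of 80 nuclear subunits of oxidative phosphorylation 0 passed at 4, 24 and 72 h, with medians of 0.06, −0.15 and −0.01. Of 77 proteins of the mitochondrial ribosome 1 fell at 24 h, Mrps22 (28.7 ± 2.55 CPM in CLP against 40.3 ± 5.40 in sham mice, −0.51 ± 0.15, edgeR adjusted p = 0.0333). Of 18 processing genes 1 rose at 24 h, Fastkd1 (8.03 ± 1.39 against 4.45 ± 0.958 CPM, 0.84 ± 0.25, edgeR adjusted p = 0.0452). In the same libraries 6 of 18 proximal tubule markers fell at 24 h and at 72 h, and 5 of 7 neutrophil markers rose at 24 h and 7 of 7 at 72 h. The part of these cell types in the mitochondrial values was not tested.

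The operation alone was not followed by a mitochondrial call at 4 h. Between sham mice at 4 h and healthy mice 0 of 112 pairs of gene and comparison passed, with 3 at an unadjusted p under 0.05 and 0 called by DESeq2. The shares of all genes called were 0.0% in arterioles, 0.00686% in glomeruli, 0.0% in capillaries, 0.0% in venules and 0.937% in whole kidney.

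Between sham mice at 24 and 4 h whole kidney changed. The mitochondrial share was 10.3% ± 0.405 (SD, n = 4) at 24 h and 13.1% ± 0.674 at 4 h, without overlap. Of 24 mitochondrial genes tested 10 passed, 4 lower and 6 higher, where 14.9% of all genes were called. Without sham replicate 3 or 4 of 4 h, or replicate 3 of 24 h, 6 passed. The fallers were abundant genes and the risers all tRNAs. mt-Rnr2 had 1.07%, 1.25%, 0.796% and 0.877% at 24 h against 1.82%, 1.66%, 2.15% and 1.59% at 4 h (−0.79 ± 0.16, edgeR adjusted p = 0.00197). mt-Nd2 had 0.624%, 0.596%, 0.807% and 0.726% against 1.11%, 1.29%, 1.18% and 1.07% (−0.69 ± 0.18, edgeR adjusted p = 0.00901). Neither gene's groups overlapped, and mt-Cytb fell by 0.59 and mt-Co1 by 0.37 on the log2 scale (edgeR, adjusted p = 0.0433 and 0.0242). mt-Rnr1 at 0.37 ± 0.14, mt-Nd1 at 0.01 ± 0.10 and mt-Nd4 at −0.07 ± 0.14 did not pass (edgeR, adjusted p = 0.0703, 0.974 and 0.769).

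The tRNAs that rose in whole kidney were those for alanine (mt-Ta), both leucine tRNAs (mt-Tl1 and mt-Tl2), and those for threonine (mt-Tt), proline (mt-Tp) and isoleucine (mt-Ti). mt-Ta had 64.0, 112.4, 67.0 and 68.9 CPM at 24 h and 19.4, 29.97, 40.1 and 19.6 CPM at 4 h (1.59 ± 0.31, edgeR adjusted p = 0.00205). mt-Tt had 7.86, 15.5, 5.11 and 5.41 CPM against 2.92, 1.74, 2.22 and 0.916 CPM (2.20 ± 0.46, edgeR adjusted p = 0.00276). Every 24 h library was above every 4 h library for both genes. mt-Tl2 rose by 1.61 ± 0.36, mt-Tl1 by 1.55 ± 0.30, mt-Tp by 1.06 ± 0.34 and mt-Ti by 0.65 ± 0.21. The summed tRNA share was 0.0454% at 24 h and 0.0262% at 4 h. These 4 h and 24 h libraries lie in different blocks of the table, and time and block cannot be told apart.

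Nuclear genes of the mitochondrion moved in the same whole kidney comparison. Of 80 nuclear subunits of oxidative phosphorylation 11 rose and 2 fell (median 0.15 against −0.00 for all genes). Their 16.2% called in either direction is near the 14.9% of all genes. For the 11 of 80 that rose the share to set beside is the 7.14% of all genes that rose. The called subunits include Ndufs7 at 0.71 ± 0.16 and Ndufb4 at 0.57 ± 0.13 of complex I, and Cox8a at −0.42 ± 0.12. Of 77 proteins of the mitochondrial ribosome 19 (24.7%) rose and 2 fell (median 0.23), where 7.14% of all genes rose, with Mrps16 at 87.4 ± 8.15 CPM at 24 h and 48.8 ± 3.97 at 4 h (0.91 ± 0.14, edgeR adjusted p = 7.96e-05). Of 18 processing genes Fastk, Elac2 (the enzyme that cuts precursors at the 3′ end of tRNAs) and Hsd17b10 (a subunit of mitochondrial RNase P, which cuts at their 5′ end) rose and Fastkd1 fell (22.2% called). Elac2 had 21.2 ± 1.97 CPM at 24 h and 13.1 ± 1.32 at 4 h (0.77 ± 0.21, edgeR adjusted p = 0.0143). Of 10 regulators of mitochondrial biogenesis 3 fell, Esrrb at −1.09 ± 0.19, Ppargc1a at −0.72 ± 0.16 and Ppara at −0.72 ± 0.22 (edgeR, adjusted p = 0.000335, 0.00365 and 0.0303). Esrrb and Ppara had risen between healthy mice and sham mice at 4 h, by 0.91 ± 0.19 and 0.89 ± 0.22 (edgeR, adjusted p = 0.00803 and 0.0483), and these comparisons share the sham mice at 4 h.

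In microdissected compartments no mitochondrial gene passed between sham mice of 24 and 4 h, where 0.0164% of all genes were called in arterioles, 0.0411% in glomeruli, 0.017% in capillaries and 0.037% in venules. The protein-coding share was higher without overlap in arterioles, at 6.69% ± 1.45 (SD, n = 4) at 24 h against 5.10% ± 0.256 at 4 h. It was so too in glomeruli (6.62% ± 0.854 against 4.73% ± 0.170) and venules (12.7% ± 1.86 against 9.55% ± 0.612). In capillaries it overlapped (5.34% ± 0.504 against 5.01% ± 0.596), as did the summed mitochondrial share in each microdissected compartment. These shares were not tested, and time and block cannot be told apart. Between 72 and 24 h no mitochondrial gene passed in any compartment, where 0.0% of all genes did in arterioles, glomeruli, capillaries, venules and whole kidney alike. Together with sham at 4 h against healthy mice, these are 14 comparisons with 312 pairs of gene and comparison, of which 29 were under 0.05 before adjustment, 13 were called by DESeq2 and 2 by edgeR without the low-count filter (mt-Nd2 higher in glomeruli and mt-Cytb lower in arterioles, both at 24 against 4 h). The shares of all genes called by these alternatives are not given here.

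The median of mt-Nd2, over sham and CLP mice together, differed between the 2 blocks of microdissected libraries. As a share of library counts its median was 3.84% in 16 venule libraries of 24 and 72 h and 1.12% in 12 of healthy and 4 h mice, 1.25% against 0.595% in arterioles, 1.12% against 0.547% in glomeruli and 1.03% against 0.599% in capillaries. Whole kidney went the other way, with 0.648% against 1.21%. Sham and CLP mice of the later block differed in capillaries, with sham means of 1.66% at 24 h and 1.93% at 72 h. The CLP means there, 0.518% and 0.608%, lay near the median of the earlier block. In venules the sham means were 4.48% and 4.90% and the CLP means 2.76% and 4.05%. Among sham mice venules had 8.03%, 3.89%, 2.58% and 3.41% of mt-Nd2 at 24 h and 0.978%, 2.09%, 1.13% and 0.791% at 4 h, without overlap, and glomeruli and capillaries did not overlap either. mt-Nd2 did not pass in these comparisons (edgeR, adjusted p = 0.43 in venules, 0.44 in glomeruli and 0.21 in capillaries, at 1.73 ± 0.57, 1.85 ± 0.51 and 1.31 ± 0.44). Its coefficient of variation among microdissected libraries was 51.8% to 73.0% at 24 and 72 h and 25.03% to 40.2% in healthy and 4 h mice. These values also pool sham and CLP mice, so a difference between them adds to the variation. Block, time and number of detected genes cannot be told apart here, and their part beside that of CLP was not tested.

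The 17 tRNA genes together held 0.350% of mitochondrial counts, and 14 of them reached a mean of 1 CPM in some compartment. The most counted were mt-Tm (methionine) with a mean of 71.3 CPM over all libraries, mt-Ti with 67.3 and mt-Tq (glutamine) with 53.0, which lie between mt-Nd1 and mt-Nd2, and mt-Ta with 56.6, which begins at base 5018 after the end of mt-Nd2 at 4951. Some annotated positions touch or overlap: mt-Nd1 ends at base 3707 of chrM and mt-Ti begins at 3706, and mt-Tm ends at 3913 before mt-Nd2 at 3914. mt-Ti and mt-Tq also overlap each other on opposite strands (3706 to 3774 and 3772 to 3842), and strand handling is not given in the sources used here. Reads of a tRNA and of an uncut or neighbouring transcript cannot be told apart in these files.

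Among compartments mt-Ti had a mean of 133.8 CPM in venules and 46.5 to 60.2 in the other 4, and mt-Tm 114.6 CPM in venules and 33.2 in capillaries. mt-Ta had 96.6 CPM in venules and 5.93 in capillaries, where it was counted in 18 of 28 libraries. Means of mt-Tp were 60.4 CPM in whole kidney and 10.9 in capillaries, and those of mt-Tt 64.1 CPM in venules and 7.03 in whole kidney. mt-Tl1 ran from 3.79 CPM in capillaries to 20.5 in venules, mt-Tv (valine) from 3.13 to 15.05, mt-Tl2 from 1.57 in capillaries to 13.4 in arterioles and mt-Tc (cysteine) from 1.97 in capillaries to 7.77 in glomeruli. By mean, capillaries were lowest for mt-Tm, mt-Tq, mt-Ta, mt-Tp, mt-Tl1, mt-Tv, mt-Tl2, mt-Tc, mt-Tf and mt-Tr, and whole kidney was lowest for mt-Ti and mt-Tt. These means pool the 28 libraries of all groups in a compartment. In healthy mice alone mt-Tt was lowest in capillaries, with a mean of 0.277 CPM against 2.85 in whole kidney. mt-Tw (tryptophan), mt-Tf (phenylalanine), mt-Tr (arginine) and mt-Ts2 (serine) had at most 5.84, 1.76, 1.37 and 2.30 CPM in any compartment and were counted in all 28 whole kidney libraries. The compartment means of mt-Te, mt-Ty and mt-Tn were below 1 CPM, although a single library reached 8.54 CPM of mt-Te.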

How the data were processed

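Gene expression was measured by QuantSeq 3′ sequencing in 140 libraries, 5 from each of 28 mice in 7 groups of 4. The authors deposited 1 table of raw counts per gene, in whole reads, with 34255 genes (561 without a symbol). Per the submitters' processing notes STAR 2.7, featureCounts, HTSeq 0.13, SAMtools 1.9, FastQC 0.11.8 and MultiQC 1.7 were used, with builds GRCm38.p6 and GRCm39. The role of each and the treatment of strand and of reads with several positions are not given in the sources used here. The table's time row puts 20 healthy libraries at 4 h, and the labels (0 h) were used.

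Shares are percent of a library's gene counts (4.24 to 18.3 M). Counts were tested with edgeR 4.0.16 (R 4.3.3): TMM scaling, filterByExpr, robust quasi-likelihood fit of the 28 libraries of a compartment, Benjamini-Hochberg adjustment over all genes, threshold 0.05. Comparisons between compartments had the mouse as a block. The code was tested on simulated data. Their spread in capillaries was set below the fitted one, so the power to find changes in the real capillary libraries was not tested. Nuclear copies were sought with BLASTN 2.17.0 (identity of at least 90%, at least 30 bases) in 141730 nuclear transcripts of GENCODE M21, where 34193 of the gene identifiers were found. Matches on the opposite strand and those on 1 nuclear chromosome were left out. The genome outside annotated transcripts was not searched, so the list of copies may be incomplete. Alternatives were library totals alone, TMM without the mitochondrial genes, no low-count filter, the 8 libraries alone, DESeq2 1.42.0, the replicate number as a block and leaving out each mouse. Same-numbered CLP and sham mice did not deviate together in microdissected tissue (r from −0.05 to 0.04, 48 pairs). In whole kidney r ran from −0.14 to 0.47 over 12 pairs, with 3 of 4 pairs over 0.1 at 24 h, 2 at 72 h and 0 at 4 h, so that the numbers were not taken as pairs. The members, lists and tests were chosen with earlier results of these data known. Named were all protein-coding and rRNA genes, tRNAs with a mean of at least 1 CPM in a compartment, up to 6 called genes of each nuclear list, and nuclear copies of at least 1 CPM in a library. Gm28439 and Gm10222, below that level, and the tRNAs mt-Te, mt-Ty and mt-Tn were named after their values were seen.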

Additional observations from a re-analysis of the deposited data

Results flagged for a closer look

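In 3 of 105 combinations of group and share measure, 1 of the 4 libraries lay apart from the other 3 by Dixon's criterion, where chance gives about 1 in 20. The healthy arteriole library of replicate 1 had an rRNA share of 1.28%. The capillary library of the sham mouse of replicate 2 at 72 h had a protein-coding share of 4.53%, the sham library nearest to the CLP range of 2.13% to 3.54%. The glomerular library of the CLP mouse of replicate 4 at 4 h had a mitochondrial share of 4.86%, against 6.42% to 6.56% in the other 3.

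The CLP change at 72 h differed between the 4 microdissected compartments for mt-Rnr2 (edgeR, adjusted p = 7.67e-18), mt-Nd2 (adjusted p = 1.47e-06) and mt-Nd4 (adjusted p = 0.000496). For mt-Nd2 the log2 changes were −1.87 ± 0.45 in capillaries, −1.15 ± 0.56 in arterioles, −1.08 ± 0.50 in glomeruli and −0.45 ± 0.56 in venules. The medians of all genes in these comparisons were −1.28, −0.06, 0.0 and 0.02, in the same order.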

How the results depend on the processing

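With CLP, 6 calls of mitochondrial genes became 11 without the low-count filter, 2 with the 8 libraries of a comparison alone, 16 with DESeq2 and 4 to 7 without 1 mouse. Those of capillaries at 72 h (6) became 2 without the filter, 2 with 8 libraries alone, 3 without the CLP libraries of under 4000 detected genes, and 4 to 7 without 1 mouse. Between sham times 10 calls became 23 with DESeq2 and 6 to 11 without 1 mouse, and the whole kidney comparison of 24 and 4 h had 6 to 10. With the replicate number as a block, which the labels do not give as a pairing, the CLP calls were 7, of which 2 lay outside capillaries at 72 h. Sham at 4 h against healthy mice gave 0 calls without any 1 mouse. For the alternatives in this section the share of all genes called is not given, except without the CLP libraries of under 4000 detected genes. The other counts of calls were therefore not set against such a share.

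Against the other 3 compartments the 17 calls became 13 to 16 without 1 mouse, and against whole kidney the 15 became 9 to 13. In arterioles against 3, 0 calls became 3 with totals alone, 3 without the filter, 2 with no replicate block, 1 with DESeq2 and 0 to 1 without 1 mouse. Glomeruli had 5 with totals alone and 8 without any 1 mouse, capillaries 6 with DESeq2 and 1 to 2 without 1 mouse, and venules 2 with DESeq2 and 4 to 6 without 1 mouse. Against whole kidney arterioles had 8 with totals alone, 3 with TMM without the mitochondrial genes, 3 with DESeq2 and 1 to 3 without 1 mouse, and mt-Rnr2 turned to −0.18 with totals alone. Capillaries had 4 with totals alone, 5 without the filter, 7 with DESeq2 and 1 to 2 without 1 mouse, venules 2 without the filter and 1 without any 1 mouse, and glomeruli 5 to 7 without 1 mouse. The cause was not tested.

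The capillary share difference at 72 h (9.09 points) turned to −3.60 over protein-coding genes alone and was 6.77 to 10.9 without 1 mouse. That of whole kidney between sham at 24 and 4 h was −2.11 over protein-coding genes and −3.08 to −2.61 without 1 mouse. CLP minus sham at 72 h without 1 mouse ran from −3.19 to −2.14 in arterioles, −2.56 to −0.877 in glomeruli, −3.50 to −0.342 in venules and −1.495 to −0.293 in whole kidney. Healthy shares over protein-coding genes were 5.36% in arterioles, 4.23% in glomeruli, 5.43% in capillaries, 10.5% in venules and 11.6% in whole kidney, and without the 10 most abundant nuclear genes 11.8% in capillaries, 15.9% in venules and 16.4% in whole kidney. Without 1 mouse the healthy shares over all mitochondrial genes were 6.64% to 7.58% in arterioles, 5.35% to 5.85% in glomeruli and 9.44% to 10.4% in capillaries. In venules they were 13.2% to 13.9% and in whole kidney 13.4% to 13.8%.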
